A study of Mus musculus with 34 samples.

Results

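Angiogenic and vascular growth factor ligands were followed in skin mast cells (MCs) and in Myh11-GFP+ cells of mouse ear skin. The ligands were *Vegfa*, *Vegfb*, *Vegfc*, *Pgf*, *Angpt1*, *Angpt2*, *Pdgfa*, *Pdgfb*, *Tgfb1* and *Fgf2*, 10 of the 25853 genes in the tables, and all 10 were found. They were picked by name as secreted proteins that act on blood or lymphatic vessels. The rule uses no measured value, although earlier results of these data were known when the members were chosen. MCs of 3 wild-type (WT) and 3 Tln1ΔMC mice were gated as CD45+ Lin- YFP+ events and read cell by cell in 30 libraries. Cells of Myh11-GFP reporter mice were sorted as CD45- GFP+ cells into 4 libraries.

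WT mice were C57BL/6J Mcpt5-Cre R26LSLYFP with intact *Tln1*, and Tln1ΔMC mice were C57BL/6J Mcpt5-Cre Tln1fl/fl R26LSLYFP. *Tln1* encodes talin 1, which links integrins to the actin skeleton. Cre was driven by the promoter of *Mcpt5*, a protease gene of connective tissue MCs, so the MCs of both genotypes carried Cre and YFP. By the study's methods the Mcpt5-Cre lines were kept on an albino C57BL/6J background, which the reporter line did not share. The 6 MC donors were male littermates aged 7 weeks. The reporter line was C57BL/6J Tg Myh11GFP/+, in which GFP follows the promoter of the smooth muscle myosin gene. The labels do not give the number of reporter mice, and its 4 libraries were taken as 1 sample. The number after the genotype in the labels was taken as the mouse.

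VEGF family ligands signal through *Flt1*, *Kdr* and *Flt4* on blood and lymphatic endothelium, with neuropilins as co-receptors. Angiopoietins act on the endothelial receptor *Tek*, while PDGFs act on the receptors of mural cells and fibroblasts, which recruits mural cells to vessels. TGF-β1 is secreted in a latent form that is freed in the matrix, and FGF2 is held on matrix heparan sulphates. Skin MCs lie close to blood vessels and are known as a source of VEGF and TGF-β1, and mural cells wrap the endothelium.

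Levels are deposited transcripts, that is unique molecular identifiers (UMIs) corrected for collisions, per 10000 transcripts outside genes named Gm plus a digit. Each molecule was counted once at its 3' end, so levels of different genes need no scaling by length. Cells with over 1000 transcripts were kept, which left 338, 294 and 272 cells of WT mice 1 to 3, 285, 354 and 934 cells of Tln1ΔMC mice 1 to 3, and 330 Myh11-GFP+ cells. The sums outside Gm names ran from 699401 to 5238325 transcripts per MC donor and reached 1440272 in Myh11-GFP+ cells. Intervals given for pooled cells cover counting error only. Tln1ΔMC 3, with 934 cells and 5238325 transcripts, weighs most in pooled MC values.

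Summed MC markers reached 633 to 866 per 10000 in the 6 mice and 0.194 in Myh11-GFP+ cells. Smooth muscle markers reached 102 and pericyte markers 132 in Myh11-GFP+ cells, beside fibroblast markers at 134, so these cells were named by their reporter. Of 6 summed endothelial markers, MC donors had 0.0610 to 0.205 and Myh11-GFP+ cells 3.001, of which *Esam* made 2.26, *Cldn5* 0.299 and *Pecam1* 0.243, while the defining gene *Cdh5* was at 0.0417. The part of endothelial transcripts in the ligand levels of Myh11-GFP+ cells was not tested. Fibroblast, keratinocyte or macrophage markers were high in 4 MC libraries, which were WT 2 libraries 1 and 3, WT 3 library 2 and Tln1ΔMC 3 library 8, and results that rest on them are given with and without them. Barcodes without a cell separated mouse 1 of both genotypes (background set 1) from the other 4 MC donors (set 2). All libraries drew on the same barcodes, so barcodes do not tell cells of different libraries apart. *Tln1* itself, the targeted gene, overlapped between WT mice at 4.51, 5.92 and 6.71 and Tln1ΔMC mice at 5.57, 4.33 and 3.63 per 10000, so 3' counts gave no check of the genotype labels.

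In MCs, 3 ligands led. *Tgfb1*, *Pdgfa* and *Vegfa* had mean levels of 1.28 ± 0.378, 1.09 ± 0.160 and 0.833 ± 0.394 per 10000 (SD, n = 6 mice). *Vegfc*, *Vegfb* and *Angpt1* followed at 0.357 ± 0.101, 0.308 ± 0.0571 and 0.165 ± 0.0570. *Angpt2*, *Pdgfb*, *Fgf2* and *Pgf* lay between 0.0102 and 0.0330. In the order of the means, *Vegfa* exceeded *Vegfc*, *Vegfb* exceeded *Angpt1* and *Angpt1* exceeded *Angpt2* in 6 of 6 mice (2-sided exact sign-flip permutation p = 0.03125 for each, the smallest that 6 mice allow, not adjusted over the 9 neighbouring pairs). The order was set by the means of these same mice, so these p-values do not test an order given in advance. The other neighbours in this order did not differ beyond their spread, with exact sign-flip p from 0.125 to 1.

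In Myh11-GFP+ cells the order was another. *Pdgfa* led at 4.67 and was followed by *Angpt2* at 1.63 and *Angpt1* at 0.525 per 10000 (means of 4 libraries). *Pdgfa* exceeded *Angpt2*, and *Angpt2* exceeded *Angpt1*, in 4 of 4 libraries without overlap of their values. *Vegfa*, *Pgf*, *Vegfb*, *Pdgfb*, *Tgfb1*, *Vegfc* and *Fgf2* followed from 0.380 down to 0.0497, and each neighbour in this range overlapped with the next over the libraries.

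**Figure D1:**
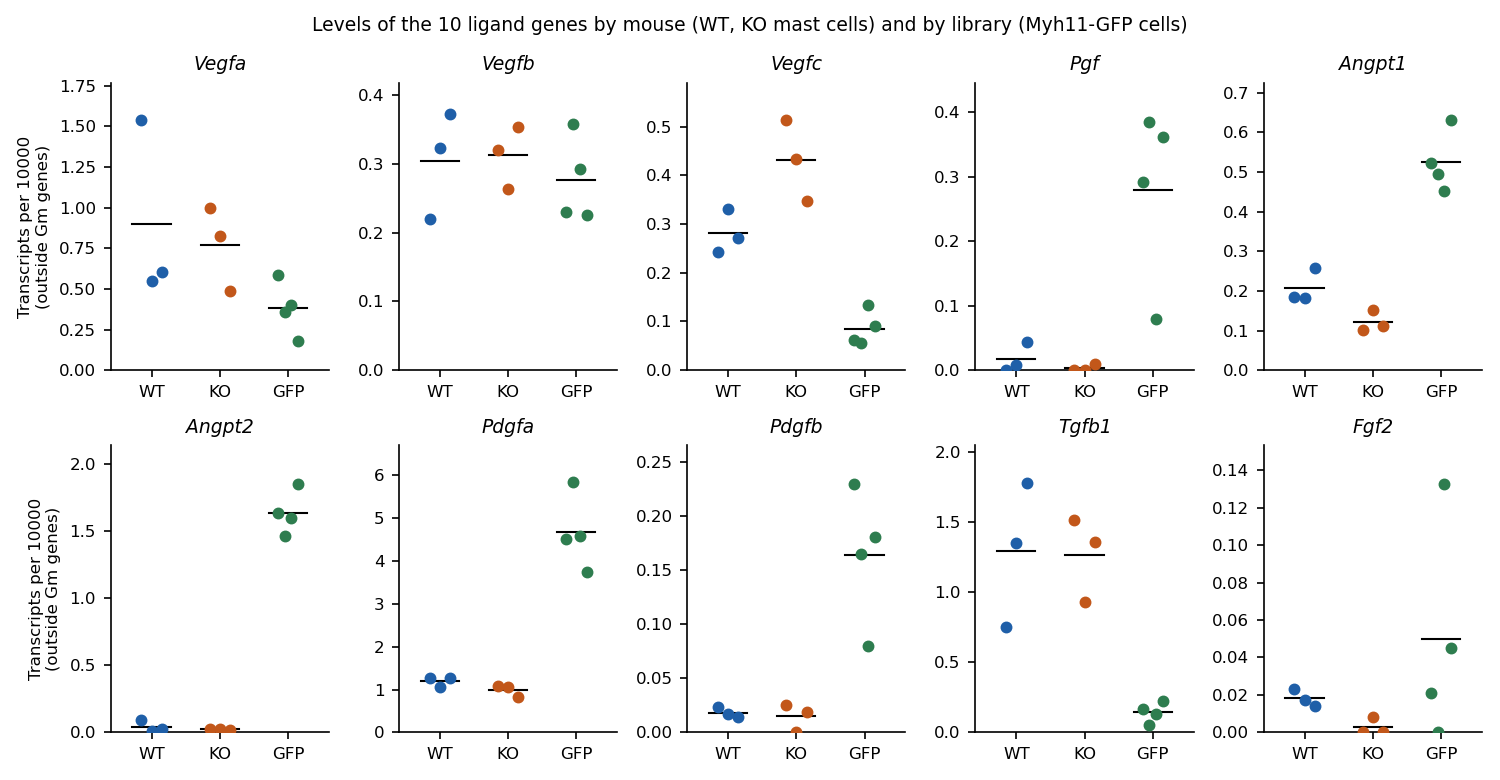
Level of each ligand gene in transcripts per 10000 outside Gm genes, with a point for each WT mouse, each Tln1ΔMC mouse and each Myh11-GFP+ library, and the mean of each group. *Tgfb1* lies between 0.751 and 1.77 in the 6 MC donors and between 0.0551 and 0.226 in the 4 Myh11-GFP+ libraries, while *Angpt2* lies at 1.46 or above only in the latter.

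Among the VEGF family, *Vegfa* (chr17:46016993-46032369, minus strand), the main driver of endothelial growth and permeability, stood at 1.54, 0.549 and 0.601 per 10000 in WT mice 1 to 3. Tln1ΔMC mice 1 to 3 had 1.00, 0.824 and 0.489, and the 4 Myh11-GFP+ libraries had 0.585, 0.358, 0.398 and 0.181. The groups overlapped, and mouse 1 of both genotypes was the highest of its genotype. In Tln1ΔMC 1, library 2 held 44 of 78 transcripts, and without it that mouse was at 0.630, below Tln1ΔMC 2. Pooled over cells, the level in MCs was 1.62 times that in Myh11-GFP+ cells (95% counting interval 1.24 to 2.15).

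*Vegfc* (chr8:54077606-54187096, plus strand), a ligand of lymphatic endothelium through *Flt4*, was at 0.243, 0.331 and 0.272 in WT mice and at 0.513, 0.433 and 0.348 in Tln1ΔMC mice. In the Myh11-GFP+ libraries it was at 0.0627, 0.0551, 0.133 and 0.0903, below every MC donor. The pooled level was 4.25 times higher in MCs (2.40 to 8.31). *Vegfb* (chr19:6982473-6987651, minus strand), a ligand of *Flt1*, ranged from 0.220 to 0.372 over the 6 MC donors and from 0.226 to 0.358 over the 4 libraries. The sorts overlapped for *Vegfb*, and the pooled ratio of MCs to Myh11-GFP+ cells was 1.17 with an interval of 0.843 to 1.67 that holds 1. Its direction turned with Gm genes in the totals, with the mean of the cells' own levels and with thinned cells. *Pgf* (chr12:85166635-85177790, minus strand), the placental growth factor and also a ligand of *Flt1*, had no transcript in 3 of 6 MC donors and at most 0.0429 in the others. Its 3 transcripts in WT mouse 3 came from 1 cell. The 4 Myh11-GFP+ libraries had 0.293, 0.386, 0.0796 and 0.361, all above every MC donor, and the pooled ratio was 29.8 (14.2 to 69.99).

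The angiopoietins differed between the sorts in the same direction. *Angpt1* (chr15:42424723-42676977, minus strand), the agonist of *Tek* that steadies vessels, was at 0.185, 0.183 and 0.257 in WT mice, at 0.103, 0.153 and 0.111 in Tln1ΔMC mice and at 0.522, 0.496, 0.451 and 0.632 in the Myh11-GFP+ libraries. *Angpt2* (chr8:18690263-18741562, minus strand), a context-dependent antagonist of *Tek*, did not exceed 0.0924 in any MC donor and was at 1.63, 1.46, 1.59 and 1.85 in the libraries. Neither gene overlapped between the sorts. The pooled level in Myh11-GFP+ cells was 3.66 times that in MCs for *Angpt1* (2.72 to 4.89) and 63.8 times for *Angpt2* (42.2 to 101).

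*Pdgfa* (chr5:138976014-138997370, minus strand), a ligand of *Pdgfra*, was at 1.26, 1.06 and 1.26 in WT mice, at 1.09, 1.06 and 0.827 in Tln1ΔMC mice and at 4.52, 5.84, 4.59 and 3.75 in the libraries. It was thus well expressed in both sorts without overlap, with a pooled ratio of 4.89 for Myh11-GFP+ cells (4.43 to 5.40). *Pdgfb* (chr15:79995874-80014977, minus strand), the ligand of *Pdgfrb* that recruits pericytes, was at most 0.0256 in an MC donor and between 0.0796 and 0.230 in the libraries, 9.71 times higher when pooled (5.00 to 19.3). *Fgf2* (chr3:37348346-37410108, plus strand), a mitogen of endothelium and fibroblasts, was at 0 in 2 MC donors and 1 library, had 6 transcripts in MCs and 7 in Myh11-GFP+ cells, and its pooled ratio was 8.03 (2.31 to 28.9). Against the mean of the 6 mice the ratio was 4.61, or 2.20 on the log2 scale, and library 15 held 5 of the 7 transcripts, without which it was 0.83.

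*Tgfb1* (chr7:25687002-25705077, plus strand), the ligand of *Tgfbr1* and *Tgfbr2*, was at 0.751, 1.35 and 1.77 in WT mice, at 1.51, 0.925 and 1.36 in Tln1ΔMC mice and at 0.167, 0.0551, 0.133 and 0.226 in the libraries. Every MC donor lay above every Myh11-GFP+ library. Its pooled level was 9.31 times higher in MCs (6.00 to 15.3).

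**Figure D2:**
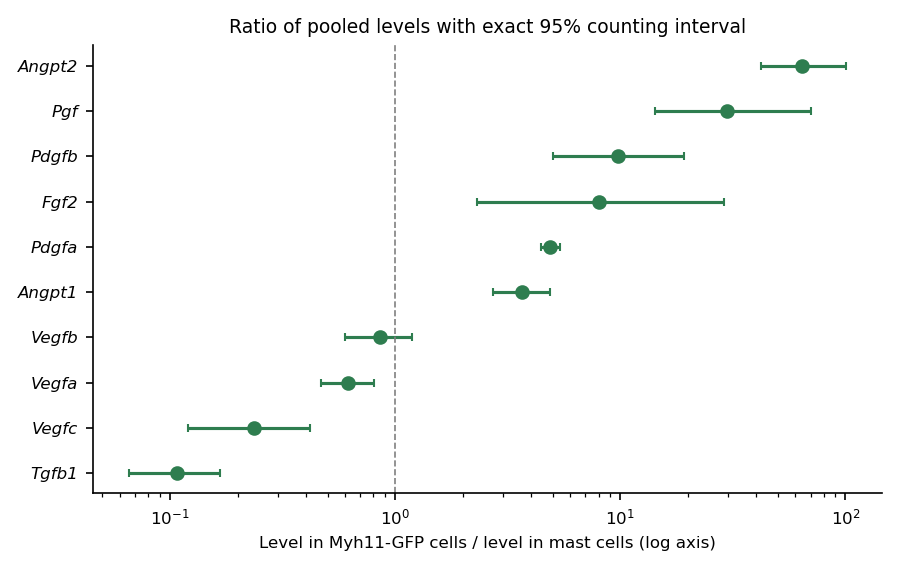
Ratio of the pooled level in Myh11-GFP+ cells to that in MCs for each ligand, on a log axis, with exact 95% counting intervals and a dashed line at 1. *Angpt2*, *Pgf*, *Pdgfb*, *Fgf2*, *Pdgfa* and *Angpt1* lie above 1, *Vegfa*, *Vegfc* and *Tgfb1* below 1, and the interval of *Vegfb* holds 1.

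Against the mean of the 6 MC donors, the Myh11-GFP+ level was at least 2-fold higher for 6 of 10 ligands, beside 19.9% of the 14679 genes with at least 10 transcripts. Among them, the pooled MC levels of *Angpt2*, *Pgf*, *Pdgfb* and *Fgf2* were 0.0252, 0.00908, 0.0172 and 0.00606 per 10000. Genes of the other sort were at 0.0111 (*Acta2*), 0.0172 (*Myh11*) and 0.0566 (*Rgs5*) in MCs. The count for *Fgf2* rests on 1 library. The MC mean was at least 2-fold higher for *Vegfc* and *Tgfb1*, 2 of 10, beside 29.5% of those genes. *Vegfa* lay just under this limit and was counted too without the 4 marker-rich libraries. Every Myh11-GFP+ library exceeded every MC donor for *Pgf*, *Angpt1*, *Angpt2*, *Pdgfa* and *Pdgfb*, 5 of 10 beside 15.2%, and every library lay below for *Vegfc* and *Tgfb1*, 2 of 10 beside 16.7%. With the reporter cells as 1 sample and from another line and gate, these are values and not tests, and cell type, sort and line cannot be told apart. Fibroblast markers ran from 107 to 232 per 10000 over the 4 Myh11-GFP+ libraries, and their part in the ligand levels was not tested.

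Detection by cell differed between the sorts in the same direction as the levels, except for *Vegfb*. To compare depths, each cell was thinned to 1000 UMIs, which left out 2 MCs and 1 Myh11-GFP+ cell from sorts with median UMI counts of 5018 and 4515.5. At least 1 of the 10 ligands was seen in 22.4% of MCs (exact 95% interval 20.8 to 24.1) and in 50.2% of Myh11-GFP+ cells (44.6 to 55.7). Without thinning the shares were 61.8% and 80.0%. In MCs, *Tgfb1* was seen in 8.93%, *Pdgfa* in 6.10%, *Vegfa* in 4.28%, *Vegfc* in 2.22%, *Vegfb* in 1.49% and *Angpt1* in 0.848% of thinned cells. By mouse, *Tgfb1* ran from 3.56% (WT 1) to 12.7% (Tln1ΔMC 3) and *Pdgfa* from 5.03% (Tln1ΔMC 3) to 7.85% (WT 2). *Vegfa* ran from 2.94% (WT 3) to 8.01% (WT 1). In Myh11-GFP+ cells *Pdgfa* was seen in 30.1%, *Angpt2* in 13.1%, *Angpt1* in 6.08%, *Vegfa* in 3.34%, *Pgf* in 3.04%, *Vegfb* in 2.13%, *Tgfb1* in 1.52% and *Pdgfb* in 1.22%.

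Genes of the other sort set the background for such shares. Smooth muscle *Myh11* and *Acta2* were seen in 0.242% and 0.0404% and pericyte *Rgs5* in 0.162% of thinned MCs. The MC gene *Cpa3* was seen in 0 of 329 thinned Myh11-GFP+ cells, which allows a share of up to 0.912%. In MCs *Angpt2* at 0.121%, *Pgf* at 0.0808%, and *Pdgfb* and *Fgf2* at 0.0404% each lay within this range, *Angpt2* and *Pgf* above *Acta2*. As counted, *Angpt2*, *Pdgfb*, *Pgf* and *Fgf2* were seen in 25, 15, 7 and 5 of 2477 MCs. *Rgs5*, *Myh11* and *Acta2* were seen in 23, 17 and 8. These 4 ligands were thus not told apart from background in MCs, and their ratios are set against a level near background. In Myh11-GFP+ cells *Vegfc* and *Fgf2* were seen in 0.912% and 0.608% of thinned cells, which the limit set by *Cpa3* cannot separate from 0. As counted they were seen in 9 and 7 of 330 cells, beside 1 with *Cpa3* and 0 with the MC gene *Cma1*.

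**Figure D3:**
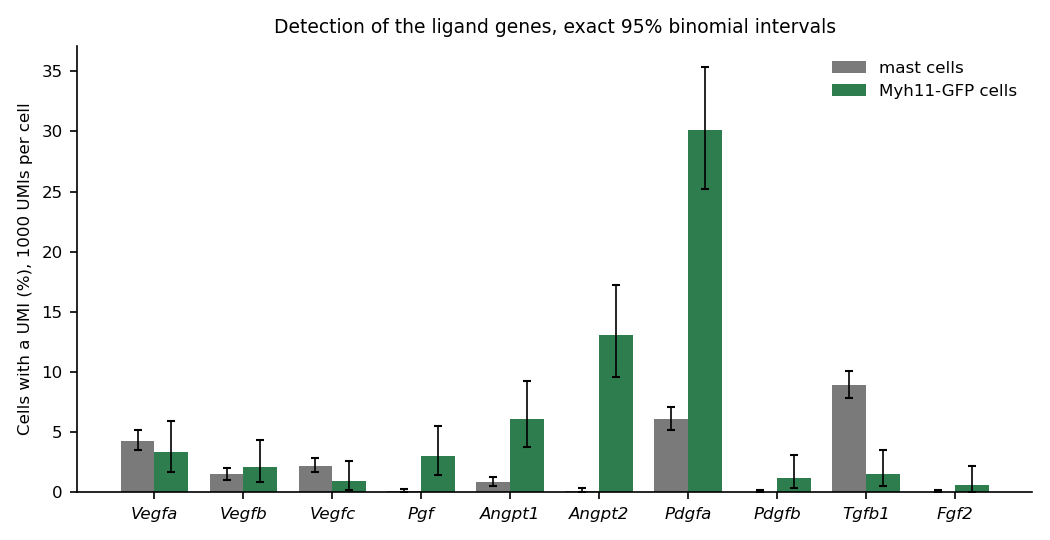
Share of cells with at least 1 UMI of each ligand after thinning every cell to 1000 UMIs, in percent, for 2475 MCs (grey) and 329 Myh11-GFP+ cells (green) with exact 95% binomial intervals. The 1000 UMIs were drawn from all genes, Gm names included. The tallest bar is *Pdgfa* in Myh11-GFP+ cells at 30.1%, and the tallest MC bar is *Tgfb1* at 8.93%.

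The receptors and partners of these ligands were read from 9 lists of 67 genes. In MCs *Nrp1*, the neuropilin co-receptor of VEGF, had a mean level of 4.77 per 10000 over the 6 mice, *Tgfbr1* of 3.48, *Fgfr1* of 3.04 and *Furin*, a protease that cleaves pro-TGF-β1 and pro-VEGF-C, of 8.13. The Myh11-GFP+ levels of the same genes were 5.09, 0.354, 1.36 and 0.972. *Pdgfrb*, the receptor of PDGF-B, was at 0.737 in MCs and 4.97 in Myh11-GFP+ cells, and *Flt1* was at 0.0900 and 1.35. The angiopoietin receptors were low in both, with *Tek* at 0.00878 and 0.0486 and *Tie1* at 0.0155 and 0.0833. *Nrros*, which anchors latent TGF-β1 on myeloid cells, was at 1.62 in MCs and 0.132 in Myh11-GFP+ cells, whereas *Lrrc32*, another anchor, was at 0.0115 and 1.83. Of the 67 genes, 63 had at least 10 transcripts, and 38 were at least 2-fold higher in Myh11-GFP+ cells and 9 in MCs, beside 19.9% and 29.5% of all genes with at least 10 transcripts.

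The question for talin was whether MCs without it differed in these transcripts. With limma on log2 values of the 3 WT and 3 Tln1ΔMC mice, 0 of 8601 tested genes passed an adjusted p of 0.05 (0%), and 497 (5.78%) had an unadjusted p under 0.05. Of the 10 ligands, 6 passed the filter on low counts, 0 were called and 1, *Vegfc*, had an unadjusted p under 0.05. *Pgf*, *Angpt2*, *Pdgfb* and *Fgf2* did not pass the filter. Of the 67 partner genes 33 were tested and 0 were called, with 4 at an unadjusted p under 0.05. The smallest adjusted p among all genes was 0.422.

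*Vegfc* had the largest positive difference among the ligands, 0.59 on the log2 scale (SE 0.25, limma adjusted p = 0.859), and the values of the WT and Tln1ΔMC mice did not overlap. Within background set 1 the log2 difference was 1.08 and within set 2 it was 0.37. Without the 4 libraries rich in other cells' markers it was 0.43. The separation of *Vegfc* also rested on single libraries. Without library 3 of WT 2, one of the 4, that mouse was at 0.397, above Tln1ΔMC 3 at 0.348. Without library 2 of Tln1ΔMC 3 that mouse was at 0.298, below WT 2 at 0.331. *Angpt1* had the largest negative difference, -0.73 (SE 0.33, limma adjusted p = 0.859), also without overlap, with -0.85 and -0.74 within the sets. Summed fibroblast markers were at 17.97, 68.6 and 49.5 per 10000 in WT mice and at 9.37, 1.69 and 0.833 in Tln1ΔMC mice, and without the 4 libraries the *Angpt1* difference was -0.49. Library 1 of WT 2, one of the 4, held 10 of the 21 *Angpt1* transcripts of that mouse, which was at 0.118 without it, and the genotypes then overlapped. What these cells contributed to *Angpt1* was not tested.

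Of the 6 tested ligands these 2 did not overlap between genotypes with all libraries kept, beside 11.6% of the tested genes. With 3 against 3 mice an exact permutation p cannot fall under 0.1. The other tested ligands overlapped, with log2 differences of -0.11 for *Vegfa* (SE 0.40), 0.06 for *Vegfb*, -0.27 for *Pdgfa* and 0.02 for *Tgfb1* and limma adjusted p of 0.885 or above. *Vegfa* and *Tgfb1* moved in opposite directions within the background sets, *Vegfa* by -0.62 in set 1 and 0.19 in set 2 and *Tgfb1* by 1.01 and -0.45. *Vegfa* ran from 1.00 to 1.54 in the 2 mice of set 1 and from 0.489 to 0.824 in the 4 of set 2, which overlapped once library 2 of Tln1ΔMC 1 was left out (0.630).

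Ligand transcripts also varied among MCs of the same mouse. Immediate early (IE) genes encode transcription factors and feedback phosphatases that stimulated cells, and cells taken from tissue by enzymes, switch on within minutes. In each library the MCs were ranked by the summed level of 8 of them (*Fos*, *Fosb*, *Jun*, *Junb*, *Egr1*, *Dusp1*, *Ier2* and *Atf3*) and divided at the middle into IE-high and IE-low cells, which gave 12 sums from 6 mice. The IE genes reached a mean of 198 per 10000 in IE-high and 41.7 in IE-low cells. With the mouse as a block, limma called 441 of 6269 tested genes (7.03%), 235 higher (3.75%) and 206 lower (3.29%) in IE-high cells. Of the 5 ligands tested, *Vegfa* was higher and *Vegfc* and *Pdgfa* were lower in IE-high cells, whereas *Vegfb* and *Tgfb1* did not pass the test. The score is a range, and cells near the middle rank fall on either side of it by small differences.

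The stretches just upstream of 3 of these ligand genes are shown. *Vegfa* was higher and *Vegfc* lower in IE-high cells, and *Tgfb1* did not pass the test. Whether products of IE genes bind there was not tested. Each is 250 bases long, ends at the base before the RefSeq start (GRCm38.p6) and is written 5' to 3' on the strand of the gene. Capitals mark matches on either strand to the GC box (GGGCGG) or the *Egr1* site (GCGNGGGCG). *Vegfa* lies at chr17:46032378-46032627 on the minus strand, *Vegfc* at chr8:54077282-54077531 and *Tgfb1* at chr7:25686752-25687001 on the plus strand.
Vegfa: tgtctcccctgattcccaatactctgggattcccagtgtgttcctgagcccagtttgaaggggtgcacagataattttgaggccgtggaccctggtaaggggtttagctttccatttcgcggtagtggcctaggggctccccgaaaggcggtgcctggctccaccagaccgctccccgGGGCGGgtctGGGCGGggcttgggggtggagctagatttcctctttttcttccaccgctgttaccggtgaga
Vegfc: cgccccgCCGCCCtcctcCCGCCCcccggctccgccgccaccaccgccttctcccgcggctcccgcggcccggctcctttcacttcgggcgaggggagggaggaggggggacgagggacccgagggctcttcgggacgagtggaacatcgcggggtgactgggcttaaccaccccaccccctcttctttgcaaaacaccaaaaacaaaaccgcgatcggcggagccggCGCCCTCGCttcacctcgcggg
Tgfb1: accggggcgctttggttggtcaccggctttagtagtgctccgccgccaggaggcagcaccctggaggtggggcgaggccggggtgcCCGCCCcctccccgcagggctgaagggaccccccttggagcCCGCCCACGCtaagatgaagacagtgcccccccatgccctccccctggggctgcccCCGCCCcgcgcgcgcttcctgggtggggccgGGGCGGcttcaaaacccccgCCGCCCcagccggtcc

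The window of *Vegfa* held 2 GC boxes, that of *Vegfc* 2 GC boxes and 1 *Egr1* site, and that of *Tgfb1* 5 GC boxes and 1 *Egr1* site that overlaps with a GC box. Of the 10 ligands, 7 were in the RefSeq table (not *Angpt1*, *Angpt2* and *Pdgfb*). A GC box was in 7 of these 7 windows beside 32.97% of all 32536 windows of this length, and an *Egr1* site in 4 of 7 beside 4.74%. An AP-1 site (TGACTCA, or TGANTCA with 1 base free), a cyclic AMP response element (TGACGTCA), a hypoxia response core (ACGTG) and a TATA box (TATAAA) were in 0 of 7 windows, beside 4.45%, 6.73%, 1.56%, 16.7% and 12.3% of all windows. The 7 windows had a G and C content of 59.2% (*Vegfa*) to 76.4% (*Vegfb*). The GC box and the *Egr1* site consist of G and C apart from 1 free base. The windows were not matched for base composition, and its part in these shares was not tested. *Vegfa*, *Pgf* and *Pdgfa* had 2 starts, of which the one farthest upstream was used. Windows of *Pgf*, *Pdgfa* and *Fgf2* held annotated exons of the gene. Such matches describe letters in a window and are not measured binding sites.

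*Vegfa* was at 2.06, 0.766 and 0.598 per 10000 in IE-high cells of WT mice 1 to 3 and at 0.937, 0.390 and 0.617 in their IE-low cells. In Tln1ΔMC mice 1 to 3 the IE-high cells had 1.46, 0.895 and 0.683 and the IE-low cells 0.450, 0.755 and 0.340. *Vegfa* was higher in IE-high cells of 5 of 6 mice, all but WT 3. The difference was 0.82 on the log2 scale (SE 0.19, limma adjusted p = 0.0108), or 1.77-fold. The call was lost without WT 1 (adjusted p = 0.055), without Tln1ΔMC 1 (0.0508), without the filter on low counts (0.137) and with cells thinned to 1000 UMIs (0.228).

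*Vegfc* was at 0.129, 0.181 and 0.166 in IE-high and 0.380, 0.452 and 0.334 in IE-low cells of WT mice, and at 0.431, 0.244 and 0.181 against 0.619, 0.647 and 0.479 in Tln1ΔMC mice. It was lower in IE-high cells of 6 of 6 mice. The difference was -1.16 (SE 0.20, limma adjusted p = 0.0014), or 2.24-fold lower. *Pdgfa* was at 0.601, 1.21 and 0.963 in IE-high and 2.05, 0.919 and 1.49 in IE-low cells of WT mice, and at 0.623, 0.798 and 0.665 against 1.66, 1.37 and 0.955 in Tln1ΔMC mice. It was lower in IE-high cells of 5 of 6 mice, all but WT 2. The difference was -0.78 on the log2 scale (SE 0.20, limma adjusted p = 0.0231), or 1.72-fold lower. The call was lost without WT 1 (adjusted p = 0.108), Tln1ΔMC 1 (0.1) or Tln1ΔMC 2 (0.0601), without the filter (0.212) and with thinned cells (0.186).

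**Figure D4:**
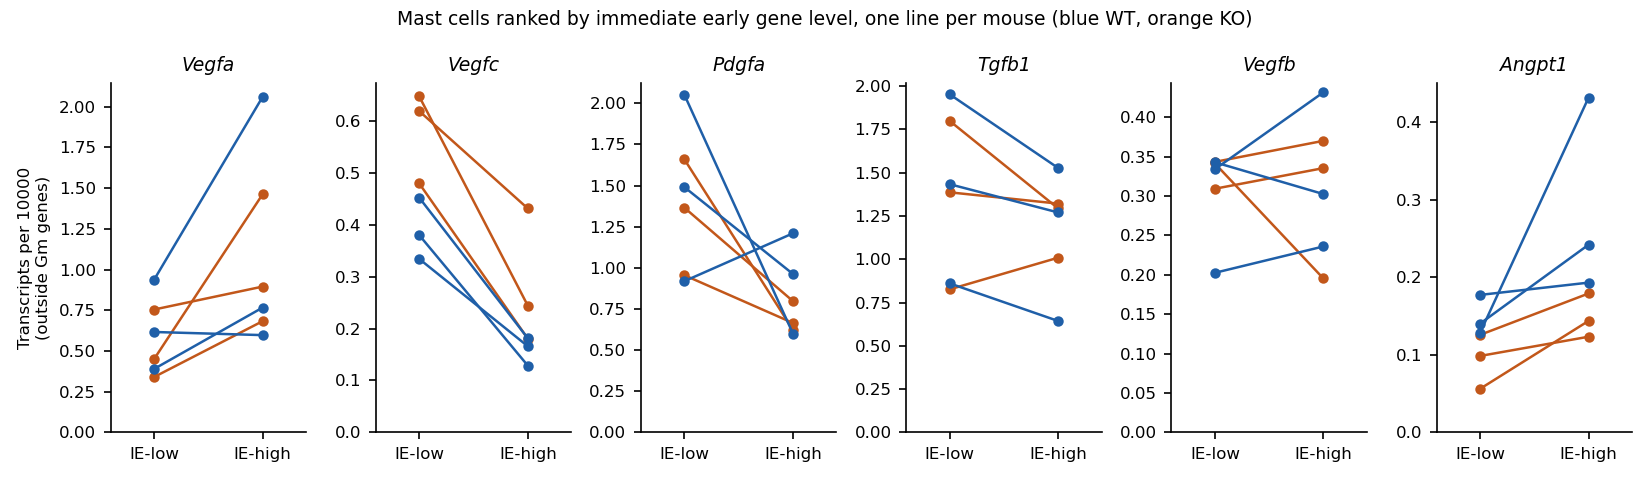
Level in transcripts per 10000 outside Gm genes in IE-low and IE-high MCs, with a line for each WT mouse (blue) and each Tln1ΔMC mouse (orange). The *Vegfc* lines fall in 6 of 6 mice, the *Vegfa* lines rise in 5 of 6 and the *Tgfb1* lines fall in 5 of 6. The *Vegfb* lines rise in 4 and fall in 2.

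*Vegfb* and *Tgfb1* differed by -0.03 and -0.20 on the log2 scale (limma adjusted p = 0.959 and 0.39). *Angpt1* did not pass the filter, and its level was higher in IE-high cells of 6 of 6 mice, from 0.123 to 0.432 against 0.0562 to 0.177. The test of the difference between the genotypes called 1 of 6269 genes (0.016%), the matrix gene *Sparc* (3.45 on the log2 scale, limma adjusted p = 0.0264), and 0 of the 5 tested ligands. The *Sparc* call was lost without the filter, without marker-bearing cells, with thinned cells, with only the outer ranks, or without WT 1, WT 3 or Tln1ΔMC 2, and fibroblast markers, higher in WT than in Tln1ΔMC mice, moved with it.

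Fibroblast markers were at a mean of 43.3 per 10000 in IE-low and 2.99 in IE-high cells, keratinocyte markers at 17.2 and 2.46, and MC markers at 745 and 806. A list of dissociation-induced genes was at 72.2 in IE-low and 271 in IE-high cells, and its part in the ligand differences was not tested. Without cells in which over 1% of transcripts came from other cells' markers, the log2 differences were 0.94 for *Vegfa*, -1.32 for *Vegfc* and -0.95 for *Pdgfa*, and without the 4 libraries they were 0.97, -1.33 and -0.84, each past the threshold. With 1 mouse left out in turn the log2 differences ran from 0.65 to 1.00 for *Vegfa*, from -1.01 to -0.58 for *Pdgfa* and from -1.29 to -1.10 for *Vegfc*, and *Vegfc* passed the test each time. With thinned cells *Vegfc* had too few counts to test.

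Of the 67 partner genes 28 were tested between IE-high and IE-low cells, with 4 higher and 5 lower (limma adjusted p from 8.86e-10 to 0.0274). *Zfp36*, itself an IE gene, rose by 2.68 on the log2 scale, and *Zfp36l1* by 0.53. Both encode proteins that speed the decay of AU-rich mRNAs, that of *Vegfa* among them. *Nrros* rose by 0.66 and *Smad7*, an inhibitor of TGF-β signalling, by 0.63. The receptor genes *Tgfbr1* and *Fgfr1* were at -0.43 and -0.39 and *Furin* at -0.53. *Id3*, a target of TGF-β and BMP signals, was at -1.84 and *Sparc*, a matrix protein that binds PDGF and VEGF, at -1.82. Without the marker-bearing cells *Sparc* was at -0.29 (limma adjusted p = 0.448) and *Id3* had too few counts to test, while the other 7 were called. Without the filter on low counts *Zfp36*, *Nrros* and *Smad7* were called and the other 6 were not (limma adjusted p from 0.0501 to 0.277).

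Among Myh11-GFP+ cells, the ligands were set against the contractile genes *Acta2*, *Myh11*, *Tagln* and *Cnn1*. The cells of each library were ranked by their sum and divided at the middle into contractile-high and contractile-low cells. *Acta2* was at 73.5 and 11.2 per 10000 in them, while the fibroblast genes *Col1a1* and *Dcn* were at 10.6 and 3.13 in contractile-high and 79.7 and 40.9 in contractile-low cells. Contractile-low cells were thus rich in fibroblast genes, and the part of this in the ligand values was not tested.

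*Pdgfa* was at 6.01, 8.27, 5.73 and 6.02 in contractile-high cells of the 4 libraries and at 3.17, 3.99, 3.52 and 2.05 in contractile-low cells. The values did not overlap, and the pooled ratio was 1.96 (95% counting interval 1.68 to 2.30). *Pgf* was at 0.518, 0.826, 0.164 and 0.739 against 0.0824, 0.0486, 0 and 0.0790, also without overlap, with a ratio of 10.1 (3.61 to 39.1). These 2 of 10 ligands had an interval above 1, beside 10.3% of 9549 genes, and 0 had an interval below 1, beside 11.3%. With the mean of the cells' own levels in place of sums, the ratio of *Pgf* was 3.37.

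*Angpt2* was at 1.63 in contractile-high and 1.56 in contractile-low cells, a ratio of 1.05 (0.800 to 1.37), and *Angpt1* was at 0.525 and 0.507, a ratio of 1.03 (0.636 to 1.68). The intervals of *Vegfa* at 0.667 (0.376 to 1.16), *Vegfb* at 1.34 (0.682 to 2.68) and *Tgfb1* at 1.73 (0.650 to 4.87) also held 1, so no difference was detectable at this depth. That of *Vegfa* was 0.338 without library 13 and 1.04 without library 15. Those of *Vegfc*, *Pdgfb* and *Fgf2* held 1 as well and were wide.

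**Figure D5:**
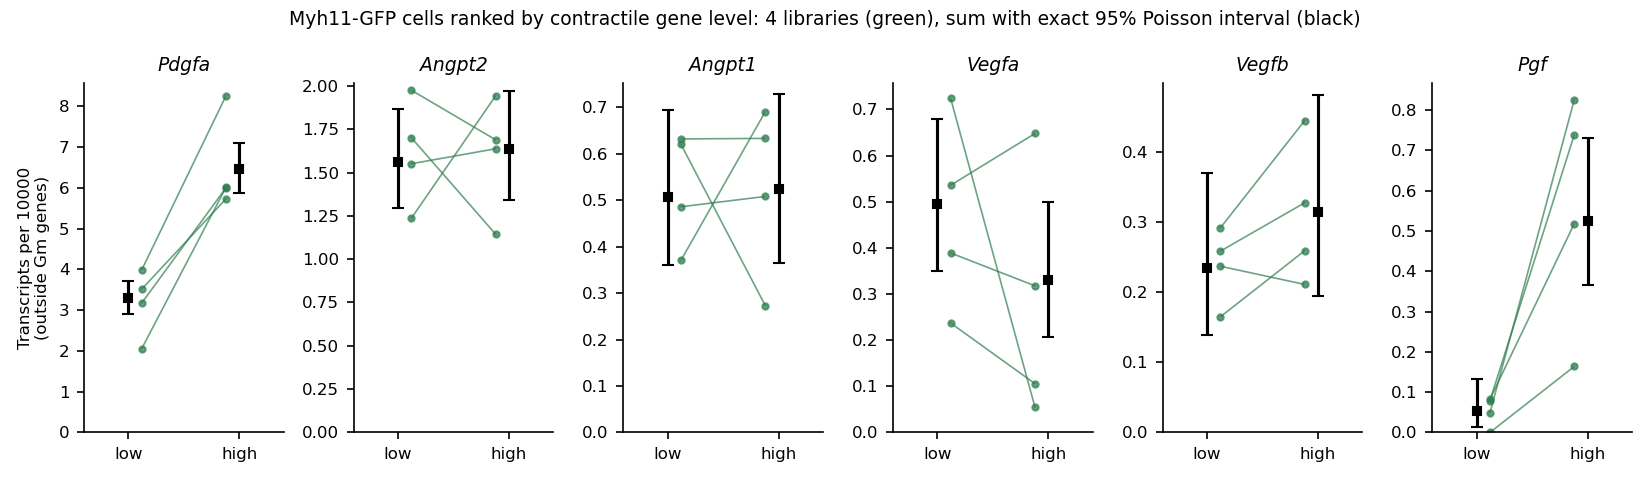
Level in transcripts per 10000 outside Gm genes in contractile-low and contractile-high Myh11-GFP+ cells for 6 ligands, with a green line for each of 4 libraries and black squares for the sum with its exact 95% Poisson interval. *Pdgfa* and *Pgf* rise in 4 of 4 libraries, and the lines of *Angpt2*, *Angpt1* and *Vegfa* cross.

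Over the 34 libraries of both sorts, the 2 genes most like each ligand by Pearson r of log2(level + 0.1) were listed for the 7 ligands with at least 100 transcripts. They were *Hexa* and *Sh3bgrl3* for *Tgfb1* (r = 0.952 and 0.930), *Gucy1a3* and *Aoc3* for *Angpt2* (both 0.964), and *Apold1* and *Acta2* for *Pdgfa* (0.893 and 0.887). *Angpt1* was most like the collagen genes *Col3a1* and *Col1a1* (0.824 and 0.814). *Vegfc* was most like *Kdsr* and *Auts2* (0.754 and 0.746), *Vegfa* like *Dusp5* and *4632432E15Rik* (0.695 and 0.693), and *Vegfb* like *Erf* and *Pcif1* (0.634 and 0.510). Such r values describe libraries that share a sort, a mouse and a depth.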

How the data were processed

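Single cells of ear skin were sequenced by mCEL-Seq2 in 34 libraries. The authors mapped reads with BWA 0.6.2-r126 to mm10 gene models, dropped reads with several loci and merged overlapping loci. The deposited values are transcripts per gene and barcode, that is counts of UMIs of 6 bases corrected by the authors for collisions among 4096 sequences. They are not whole counts, so limma 3.58.1 (R 4.3.3) was used on log2 values. Values were not changed except as follows. Cells needed over 1000 transcripts. Cell values were summed per mouse, or per mouse and IE rank, and scaled to transcripts outside Gm names. Tests used log2(per 1000000 + 1) for genes that reached 10 transcripts in 3 mice or more, or in 6 or more of 12 sums with the mouse as a block, and Benjamini-Hochberg adjustment at 0.05. Differences on this scale understate the change of low genes.

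Median transcripts per cell ran from 4578 to 7097 over the MC donors, with 14.2% to 58.0% in Gm genes, and UMI depth limits detection of low ligands. Shares have exact binomial and sums exact Poisson 95% intervals. In simulated data limma recovered 95.5% of 200 genes changed 4-fold between genotypes (6 false calls among 8601 genes) and 79.0% of those changed 2-fold between IE ranks (10 false calls among 6277 genes). The simulation gave every gene the same small fixed spread between samples. Real mice spread more for some genes, such as *Vegfa* between genotypes (SE 0.40 on the log2 scale). These shares therefore do not give the power of the real tests. Doublets were removed only at the sort. Whether mice were handled as separate preparations is not stated, so p-values measure the spread between these samples. The members, lists and tests were chosen with earlier results of these data known. Text names all 10 ligands, each pathway gene called in a test, up to 2 of the highest per list and sort, and the 2 genes most like each ligand. Positions come from GENCODE models and promoters from RefSeq, both on GRCm38.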

Additional observations from a re-analysis of the deposited data

How the results depend on the processing

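Between genotypes the ligands were called in 0 cases under every setting run. Over all genes, totals with Gm genes gave 45 calls (3 higher, 42 lower) and moved the median of all genes from -0.03 to 0.18 on the log2 scale. The background set as a block gave 2 calls, and leaving out 1 mouse gave 0 to 15, the most without Tln1ΔMC 1. Small differences changed sign. *Vegfa* was at 0.11 with Gm totals, 0.07 with the mean of cell levels, 0.19 within set 2 and from -0.38 to 0.36 with 1 mouse left out. *Vegfb* was at -0.17 within set 2 and from -0.15 to 0.21. *Tgfb1* was at -0.04 over 2000 transcripts, -0.03 without marker-bearing cells, -0.04 without the 4 libraries, -0.45 within set 2 and from -0.32 to 0.29. The causes were not tested.

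Between IE-high and IE-low cells, no filter gave 162 calls (106 higher, 56 lower) with 1 ligand and thinning gave 97 (58 higher, 39 lower) with 0 ligands, while leaving out 1 mouse left 1 to 3 ligands. *Vegfb* was at 0.12 in the outer ranks and from -0.10 to 0.12 with 1 mouse left out. The test by genotype gave 0 calls without the filter, without marker-bearing cells, with thinning and with the outer ranks, and 0 to 5 with 1 mouse left out. Its *Vegfa* difference was -0.03 without the 4 libraries (-0.07 to 0.65 by mouse), that of *Vegfc* -0.02 over 1000 transcripts outside Gm genes and -0.15 in the outer ranks (-0.12 to 0.31), and that of *Pdgfa* ran from -0.78 to 0.30.

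At least 1 ligand was seen in 2.38% of MCs and 8.51% of Myh11-GFP+ cells with at least 2 UMIs, and in 61.8% and 80.0% without thinning. The log2 ratio of *Vegfb* to MCs was 0.67 thinned, 0.35 with Gm totals and 0.34 with cell means. That of *Fgf2* was 0.83 without library 15 against 2.20. With 1 library left out, 5 to 6 ligands were 2-fold higher in Myh11-GFP+ cells and 2 to 3 in MCs, and 2 to 3 passed by contractile rank.

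Deviations of same-numbered mice from their genotype means had correlations of 0.164, -0.212 and -0.265, beside -0.292 to 0.421 for mice of different numbers. With 3 mice per genotype this cannot tell whether the numbers pair them. Mouse 1 of both genotypes also shared background set 1. The main fit did not pair mice, and the replicate block gave 0 calls. The edgeR test was not run, since the values are not whole counts. Leaving out the 4 libraries or single libraries, spare barcodes and the background sets were chosen after seeing the data. Low transcript numbers limit *Pgf*, *Pdgfb* and *Fgf2*.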
